A study of Mus musculus with 4 samples.

Results

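The sites described here are adenosines called as N6-methyladenosine (m6A) to which the deposited tables gave no gene name (the word ELSE in the gene column) and whose 3-mer was written wholly in lower case. They are called masked sites below. Over the 4 libraries there were 4994 masked sites, counted by chromosome, position and strand, of 14997 sites outside named genes and 25595 sites in all. Of the other sites outside named genes, 9879 had an upper-case 3-mer and are called unmasked, and 124 had a 3-mer of mixed case. The choice used only the gene column and the letter case, so strand, position and sharing between libraries were free to vary. Level varied only above the lowest level listed for any site, which was 10.0% to 10.05% over the libraries.

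m6A is an internal mark of RNA that is placed as the RNA is made, and reader proteins bind it and affect the fate of the transcript. In genome files, lower case by convention marks interspersed repeats, such as LINE and SINE elements and retroviral long terminal repeats, together with simple repeats. Such sequence is transcribed within introns, in unannotated transcripts and from its own promoters, and near-identical copies elsewhere in the genome can make the origin of a short read uncertain. The files themselves do not say what the case of the letters means, and no repeat annotation of this build was used here.

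The libraries came from cortical astrocytes, sorted with an antibody against ACSA2, and cortical microglia, sorted with an antibody against CD11b, with 2 libraries of each. All mice had the genotype APOBEC1-YTH, in which an editing enzyme that deaminates cytidine is joined to the YTH domain, a reader of m6A. All were given tamoxifen at 20 mg/kg every 24 hours for 5 days from 10 weeks of age, with tissue taken 7 days after the last dose. The labels do not name the promoter that drives the fusion. GLORI (a chemical treatment that deaminates unmethylated adenosine, so that adenosine still read as A counts as methylated) was then applied to total RNA. Nothing states that the 2 libraries of a type came from separate animals, so p-values measure the spread between these libraries only, which may be technical.

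Both replicate 2 libraries went against their labels in named genes. Sites were listed in 17 of 20 astrocyte marker genes in the library labelled astrocyte 1, and in 1, 0 and 15 of them in those labelled astrocyte 2, microglia 1 and microglia 2. Of 20 microglia markers, 2, 17, 16 and 1 had a site in the same order. Of 10 oligodendrocyte markers, 7, 0, 0 and 7 had a site. Every direction between the types below therefore refers to the labels alone. Groups were kept as labelled, and results within each library do not depend on them.

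Masked sites made up a similar part of the sites outside named genes in each library. The library labelled astrocyte 1 listed 2637 masked sites of 7897 outside named genes (33.4%, exact 95% binomial interval 32.4 to 34.4). The library labelled astrocyte 2 listed 1637 of 4883 (33.5%, 32.2 to 34.9), that labelled microglia 1 listed 1796 of 5277 (34.03%, 32.8 to 35.3), and that labelled microglia 2 listed 1631 of 4698 (34.7%, 33.4 to 36.1). These intervals cover the counting of sites only, and read depth is unknown. The astrocyte-labelled minus the microglia-labelled mean was -0.917 percentage points, and the groups did not overlap. The exact two-sided permutation test gave p = 0.333, the smallest value that 2 libraries against 2 allow. Without microglia 2 the difference was -0.576 points.

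Within named genes, far fewer of the listed sites were masked. Below, 4 values in a row are given in the order astrocyte 1, astrocyte 2, microglia 1 and microglia 2. The masked share in named genes was 4.93%, 5.66%, 10.7% and 4.07%. The share outside named genes was thus higher in 4 of 4 libraries, by 27.6 points ± 3.07 (SD, n = 4; exact paired permutation test, p = 0.13). That p is the smallest that 4 pairs can give, so no paired comparison here could pass a threshold of 0.05.

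Most masked sites were listed as fully methylated. The median level, the share of reads still carrying A, was 100% in each library. The mean level was 92.7%, 95.8%, 97.3% and 93.6%, with an SD over sites of 15.6, 10.9, 10.1 and 14.6 points. Sites at exactly 100% numbered 1954, 1319, 1586 and 1230, or 74.1%, 80.6%, 88.3% and 75.4% of the masked sites. The library labelled microglia 1 had the highest share at 100% and that labelled astrocyte 1 the lowest. Levels from 50% to below 90% were held by 18.8%, 14.2%, 6.35% and 18.5% of masked sites, and levels below 50% by 3.30%, 1.10%, 1.56% and 2.21%. Among the sites below 100% the median was 80%, 83.3%, 83.3% and 80%.

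The levels of unmasked sites were close to these. Their mean was 92.1%, 95.5%, 97.9% and 92.9%, and 72.4%, 79.5%, 90.04% and 72.3% of them stood at 100%. The masked mean was higher in 3 of 4 libraries, by 0.280 points ± 0.599 (SD, n = 4; exact paired permutation test, p = 0.375, adjusted p = 0.562 over 6 measures by Benjamini-Hochberg). The share at 100% was higher among masked sites in the same 3 libraries, by 1.03 points ± 2.02 (exact paired permutation test, p = 0.500, adjusted p = 0.600). The library labelled microglia 1 went the other way in both. These differences were smaller than their spread over the libraries. The difference in mean was 0.173 points without astrocyte 1, 0.568 without microglia 1, 0.123 without microglia 2, 0.558 over sites of at least 20% and 0.134 without a dense stretch of chromosome 17 described below. The difference in the share at 100% was 1.96 points without microglia 1, 0.358 without microglia 2 and 0.567 without that stretch. The direction depended on sharing between libraries, which was not tested. For sites in all 4 libraries the masked mean was lower in each library. It was 96.5%, 97.1%, 97.0% and 96.3%, against 98.2%, 98.5%, 98.1% and 97.95% for unmasked sites. For sites listed in only 1 library the masked mean was higher in each. It was 89.5%, 95.1%, 97.8% and 89.4%, against 87.6%, 93.9%, 97.5% and 85.6%.

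Masked sites outside named genes stood well above masked sites in named genes, a comparison added after the data were seen. The latter had mean levels of 74.5%, 75.8%, 73.8% and 63.5%. The difference was 22.9 points ± 5.27 (SD, n = 4; exact paired permutation test, p = 0.13), with the sites outside named genes higher in 4 of 4 libraries. The base pattern differed too, with GAC less frequent outside named genes in 4 of 4 libraries by -6.26 points ± 2.66 (exact paired permutation test, p = 0.13). Unmasked sites went the same way in each library, so neither contrast was particular to masked sites. Their mean level was 66.1%, 72.2%, 83.6% and 59.4% in named genes, against 92.1%, 95.5%, 97.9% and 92.9% outside. GAC made up 68.6%, 66.3%, 58.6% and 70.5% of them in named genes, against 46.1%, 44.6%, 40.8% and 44.9% outside.

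Every listed site carried 1 of 2 3-mers, GAC or AAC, both of which belong to the DRACH pattern in which the m6A writer complex acts. AAC was the commoner of them among masked sites, since GAC made up 40.9%, 41.8%, 36.4% and 38.8%. Among unmasked sites GAC made up 46.1%, 44.6%, 40.8% and 44.9%. The masked share was lower in 4 of 4 libraries, by -4.62 points ± 1.39 (SD, n = 4; exact paired permutation test, p = 0.13, adjusted p = 0.250 over 6 measures). The gap was narrowest in the library labelled astrocyte 2 (-2.83 points) and widest in that labelled microglia 2 (-6.08 points).

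Within the masked sites, AAC sites had the higher mean level in each library. It was 93.6%, 96.8%, 97.4% and 94.2% for AAC and 91.3%, 94.5%, 97.2% and 92.6% for GAC. The 2 kinds were nearly equal in the library labelled microglia 1, where 88.3% of AAC and 88.4% of GAC sites stood at 100%. AAC sites were also listed more often in a second library: 53.8%, 47.8%, 64.97% and 69.2% of them, against 43.8%, 36.1%, 61.8% and 62.6% of GAC sites. Unmasked AAC sites were also higher in mean level, except in the library labelled microglia 1. Their means were 92.8%, 96.0%, 97.9% and 93.9%, against 91.2%, 94.8%, 97.97% and 91.6% for unmasked GAC sites. They were also more often in a second library, again except in microglia 1. Those shares were 50.2%, 40.6%, 63.3% and 66.5%, against 42.3%, 35.2%, 63.8% and 58.5%. All are given as descriptions without a test.

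More masked sites lay on the plus strand than on the minus strand in every library. The plus share was 63.4%, 61.3%, 61.9% and 63.4% for masked sites and 58.9%, 57.0%, 61.4% and 59.8% for unmasked sites. The masked share was higher in 4 of 4 libraries, by 3.20 points ± 1.88 (SD, n = 4; exact paired permutation test, p = 0.13, adjusted p = 0.250). Without 1 dense stretch of chromosome 17 described below, which held 138 plus-strand masked sites, the difference was 2.10 points ± 1.62 and held in 3 of 4 libraries (exact paired permutation test, p = 0.250). Over the 20 chromosomes with at least 30 sites outside named genes, the plus share of masked sites exceeded 50% on all 20, from 54.1% on chromosome 13 to 75.8% on chromosome 17. Unmasked sites also exceeded 50% on all 20.

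**Figure D1:**
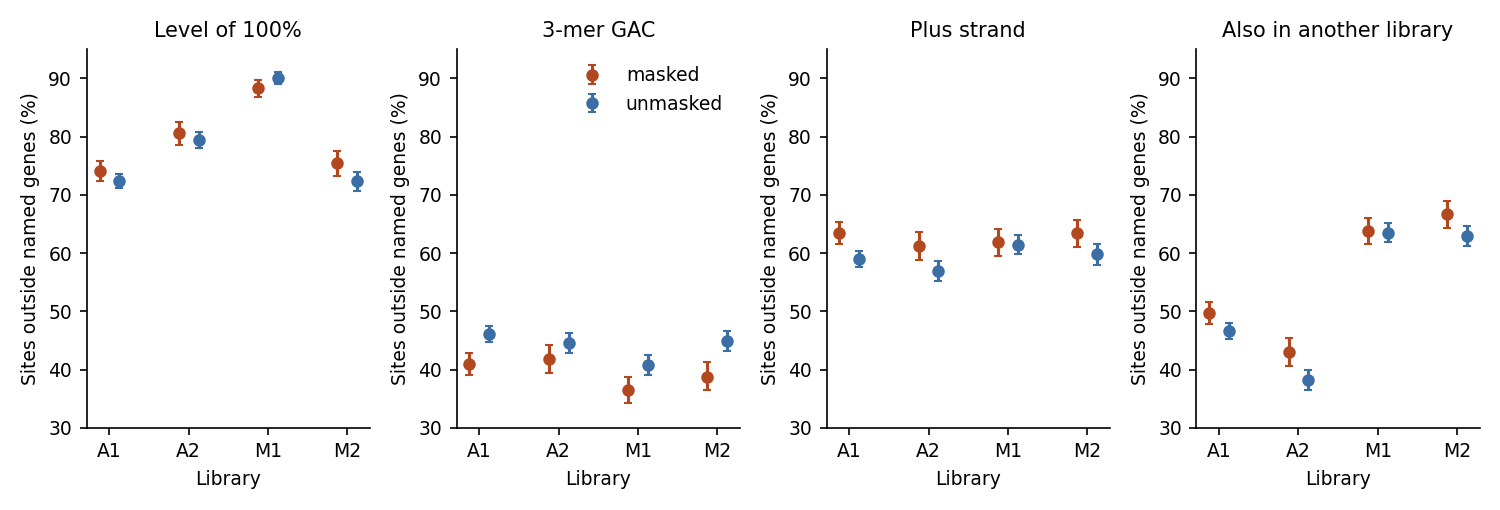
Share of sites outside named genes at a level of 100%, with the 3-mer GAC, on the plus strand and also listed in another library (y axes, percent, drawn from 30), for masked and unmasked sites in each library (A1, A2, astrocyte 1 and 2; M1, M2, microglia 1 and 2, as labelled). Points are the shares and bars their exact 95% binomial intervals, which count sites only; masked points lie below unmasked points for GAC in all 4 libraries (36.4% to 41.8% against 40.8% to 46.1%).

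Each library listed many masked sites that no other listed. The share also found in at least 1 other library was 49.7%, 42.9%, 63.8% and 66.6%, with the library labelled astrocyte 2 the lowest. Among unmasked sites it was 46.5%, 38.2%, 63.5% and 62.9%. The masked share was higher in 4 of 4 libraries, by 2.98 points ± 1.90 (SD, n = 4; exact paired permutation test, p = 0.13, adjusted p = 0.250). Without the dense stretch of chromosome 17 it was 2.48 points ± 1.77 and held in 3 of 4 libraries (exact paired permutation test, p = 0.250). With sharing counted over 3 libraries, it was 1.75 points without astrocyte 2 and 1.53 without microglia 2 (exact paired permutation test, p = 0.500 for each).

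Counted once each, 3455 masked sites (69.2%) were in a single library, 713 (14.3%) in 2, 484 (9.69%) in 3 and 342 (6.85%) in all 4. Of all listed sites, 4.3% were in all 4, and of unmasked sites 6.70%. Masked sites in more libraries had the higher mean level, 92.6% for those in 1 library and 95.6%, 96.5% and 96.7% for those in 2, 3 and 4. This was not so in each library. In that labelled astrocyte 1, masked sites listed only there averaged 89.5% and those in all 4 libraries 96.5%, and in that labelled microglia 2 the values were 89.4% and 96.3%. In that labelled microglia 1 they were 97.8% and 97.0%. Unmasked sites, counted once each, had means of 90.8%, 96.5%, 98.0% and 98.2% for those in 1, 2, 3 and 4 libraries. The rise with sharing was therefore not particular to masked sites.

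Overlap between libraries did not follow the labels. The Jaccard index, which divides the masked sites shared by a pair by those listed in either, was 15.4% for the astrocyte-labelled pair (569 shared masked sites) and 28.4% for the microglia-labelled pair (759). Between the labels, the library labelled astrocyte 1 had 27.7% with microglia 1 (962 shared) and 27.5% with microglia 2 (920). That labelled astrocyte 2 had 16.5% with the former (485) and 19.01% with the latter (522). The same-label mean of 21.9% was -0.761 points from the different-label mean of 22.7%. This direction rested on single libraries: leaving out astrocyte 1 or astrocyte 2 gave 10.7 and 0.851 points, and leaving out microglia 1 or microglia 2 gave -7.89 and -6.73 points. The 3 pairs that include astrocyte 2 were the 3 lowest, for masked and for unmasked sites. As a share of the smaller library, overlap ran from 29.6% to 56.4%. Over masked sites shared by a pair, the mean absolute difference in level was 2.04 to 2.53 points. Over the 49 to 105 shared masked sites below 100% in both libraries of a pair, Pearson's r across sites was 0.72 to 0.89, a description over sites that share a library.

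**Figure D2:**
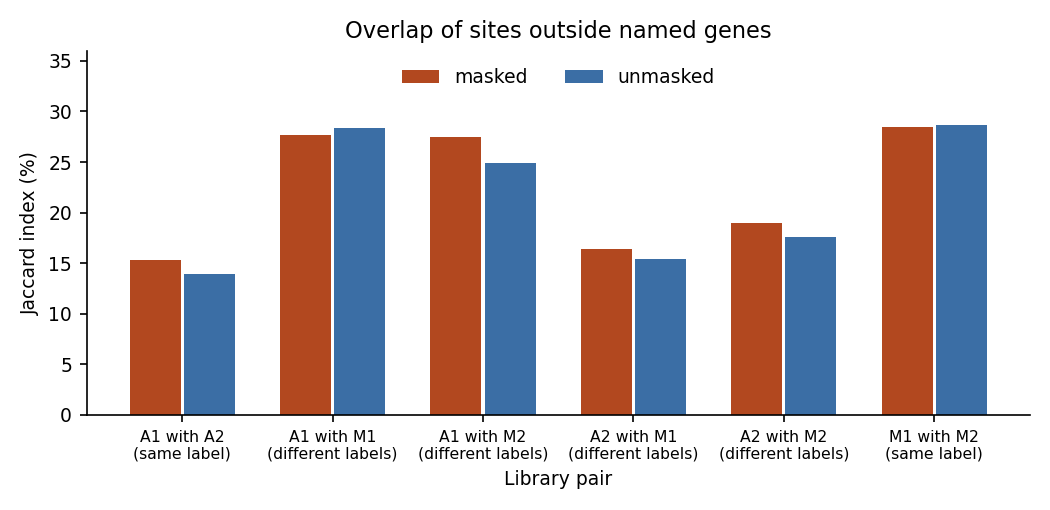
Jaccard index (y axis, percent) of sites outside named genes for each of the 6 library pairs (x axis), with bars for masked and unmasked sites. The astrocyte-labelled pair is the lowest at 15.4% for masked sites, and the highest masked bar is the microglia-labelled pair at 28.4%.

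Few masked sites were listed in both libraries of 1 label and in neither of the other. There were 65 in both astrocyte-labelled libraries only, 1.30% of masked sites (exact 95% interval 1.01 to 1.66) beside 0.985% of all listed sites. There were 95 in both microglia-labelled libraries only, 1.90% (1.54 to 2.32) beside 1.11% of all listed sites. Among unmasked sites the shares were 1.17% and 1.49%. In bulk RNA, fewer cells of a type and less RNA per cell cannot be told apart, and an unlisted site can be unmethylated, under a calling threshold or unread. By construction the counts grow when a library is left out. The astrocyte count was then 999, 1392, 119 and 173, and the microglia count 390, 122, 639 and 745, without each library in turn. With the replicate 1 libraries alone, whose markers matched their labels, 1675 masked sites were in that labelled astrocyte 1 but not microglia 1, and 834 the reverse. The replicate 2 libraries on their own gave 1115 and 1109. Library sizes differed: the replicate 1 libraries listed 2637 and 1796 masked sites, of 12687 and 6343 sites of every kind. Those of replicate 2 listed 1637 and 1631 masked sites, of 7231 and 8480. The matching share over all listed sites was not computed, so these counts cannot tell whether masked sites were in excess in either label.

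Of the 65 sites, 53 stood at 100% in both libraries, and of the 95, 74 did. The lowest of the first list was a gac site at position 59773606 of chromosome 8, plus strand, with 23.4% in astrocyte 1 and 52.8% in astrocyte 2. Its nearest site in a named gene was in Aadat, 1215 kb away. A gac site at 153973853 of chromosome 4 had 69.6% and 67.9%, and one at 44074745 of chromosome 16 had 60% and 80%. The last lay 28.5 kb from a site of Usf3 on the same strand. The lowest of the second list was an aac site at 3149995 of chromosome 5, plus strand, with 13.6% in microglia 1 and 10.3% in microglia 2. An aac site at 146198080 of the same chromosome, 29.6 kb from a site of Cdk8, had 29.1% and 20.1%, and one at 54092192 of chromosome 13 had 46.7% and 47.9%. The paired libraries were within 10 points of each other at 4 of these 6 sites.

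The 342 masked sites present in all 4 libraries allow levels to be compared at the same bases. At 218 of them (63.7%) the level was 100% in each library, and at 28 the mean was below 90%. Over the 342 sites the mean level was 96.5%, 97.1%, 97.0% and 96.3%, and the astrocyte-labelled mean exceeded the microglia-labelled mean by 0.148 points (exact two-sided permutation test, p = 0.667), with overlapping groups. The direction turned without astrocyte 2 (-0.0903 points) and without microglia 2 (-0.0278 points), and the difference was 0.355 without astrocyte 1 and 0.447 without microglia 1.

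The lowest mean belonged to a gac site at position 91494033 of chromosome 10, minus strand, with 18.8%, 34.97%, 16.5% and 18.4%. Astrocyte 2 stood higher, and the other 3 libraries lay within 3 points of each other. The mean was 22.2% ± 8.59 (SD, n = 4). Its nearest named site, 426 kb away on the same strand, was in Rmst, a long non-coding RNA of neural tissue. The next was an aac site at 19800285 of chromosome 11, plus strand, with 34.8%, 36.4%, 61.5% and 34.9%, a mean of 41.9% ± 13.1. Here microglia 1 stood apart from the other 3. A plus-strand aac site at 5258146 of chromosome 10 had 37.5%, 53.3%, 47.6% and 37.5%. It lay 41.2 kb from a site of Syne1, which is on the opposite strand.

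Of the 10 lowest, 6 had a mean below 50%. The fourth to sixth were aac sites. Position 143814776 of chromosome 5 had 46.2%, 40.8%, 62.9% and 27.5%, the range being 35.3 points. Position 51131106 of chromosome 19, minus strand, had 43.9%, 57.9%, 47.3% and 31.5%. Position 74877675 of chromosome 8 was the steadiest of the 10, with 48.9%, 57.1%, 46.2% and 45.1%.

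The other 4 all lay on chromosome 3. The aac site at 68967961 had 54.5%, 60%, 36.7% and 53.8%, and lay 22.7 kb from a site of Trim59 on the other strand. The gac site at 122258405 had 48.4%, 39.2%, 68.8% and 50%, and was 43.7 kb from a same-strand site of Bcar3. The minus-strand gac site at 66344265 had the widest range, 36.6 points, with 41.2%, 77.8%, 41.9% and 55.6%. The gac site at 16165353, 92.8 kb from a site of Ythdf3, which encodes an m6A reader, had 52.3%, 60%, 80.9% and 69.7%. Neither label was the higher throughout these 10 sites.

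**Figure D3:**
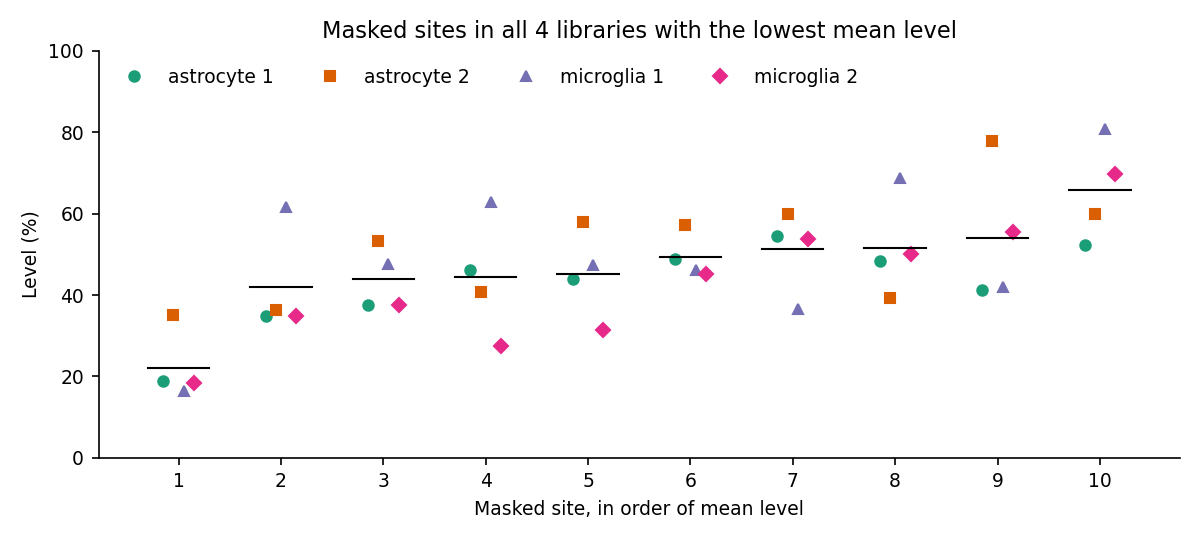
Level (y axis, percent) of the 10 masked sites with the lowest mean level among the 342 present in all 4 libraries, in order of mean level (x axis), with 1 marker per library as labelled and a line at the mean. The first site lies at 16.5% to 34.97% and the tenth at 52.3% to 80.9%, and no library is the highest or the lowest throughout.

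Levels were then tested site by site with limma on log2 odds over the 1100 sites in all 4 libraries, masked or not, of which 354 had any spread to test. Of these, 0 (0%) were called at a Benjamini-Hochberg adjusted p under 0.05 and 16 (4.52%) had an unadjusted p under 0.05. Of the 342 masked sites, 229 were tied within both labels and received no test. Of the 113 tested, 0 were called, 5 had an unadjusted p under 0.05, and the smallest adjusted p was 0.457. The signs were mixed, with 63 of the 113 higher in the astrocyte-labelled libraries.

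The masked sites with the lowest limma p all had 1 label at 100%. The aac site at 23449145 of chromosome 16 had 90% and 92.3% in the astrocyte-labelled libraries and 100% in both others (difference -8.85 points). The aac site at 45159277 of chromosome 17 had the same levels with the replicates exchanged. The aac site at 28933007 of chromosome 1 had 100% in both astrocyte-labelled libraries and 92.9% and 92.3% in the others (7.42 points). These 3 had an adjusted p of 0.457 by limma. At 37396742 of chromosome 10 the difference was -3.58 points and at 47752352 of chromosome 12 it was 5.36 points, with an adjusted p of 0.679 by limma.

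The lowest level listed for any site was 10.0% to 10.05% over the libraries. A small set of masked sites had levels between that and 20%, a limit chosen after the data were seen. They numbered 16, 1, 6 and 11, or 0.607%, 0.0611%, 0.334% and 0.674% of the masked sites of each library. Unmasked sites under 20% numbered 11, 0, 1 and 1, or 0.212%, 0%, 0.0291% and 0.0332%. The masked share was higher in 4 of 4 libraries, by 0.350 points ± 0.240 (SD, n = 4; exact paired permutation test, p = 0.13). Counted once, there were 17 masked sites (0.340% of 4994, exact 95% interval 0.198 to 0.545) and 12 unmasked sites (0.121% of 9879, 0.0628 to 0.212). Of the 17 masked sites 14 were listed in at least 2 libraries, and of the 12 unmasked sites 3 were. Below 50% the masked share was also higher in 4 of 4 libraries, by 0.396 points ± 0.175 (exact paired permutation test, p = 0.13).

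Outside chromosome 18, 13 of these low sites were in more than 1 library, and at 10 of them the libraries lay within 10 points of each other. At the other 3 they did not: those were the site at 91494033 of chromosome 10 given above, that at 82197265 of chromosome 12 (15.9% to 32.1%) and that at 50703617 of chromosome 14 (16.1% and 28.1%). No level under 10.0% was listed, so libraries that are all under 20% at a site lie within 10 points by construction. The closeness at the 10 sites is therefore no measure of agreement between libraries. The library labelled astrocyte 1 had 10.2% at the gac site at 62066749 of chromosome 3, where microglia 1 and 2 had 14.05% and 11.3%. The aac site at 16165241 of the same chromosome had 10.8%, 13.2% and 11.8% in those libraries, and the aac site at 133340212 had 19.4%, 15.5% and 17.3%. The gac site at 99611327 of chromosome 12 was the one masked site under 20% in astrocyte 2, at 19.5%, with 13.5% in astrocyte 1 and 14.7% in microglia 2. The gac site at 75172966 of chromosome X, minus strand, had 13.4% in astrocyte 1, 22.8% in astrocyte 2 and 14.01% in microglia 1.

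Masked sites were spread over all autosomes and chromosome X, with 3 on unplaced scaffolds and 0 on chromosome Y or the mitochondrial genome. The share of sites outside named genes that was masked had a median of 32.2% over 20 chromosomes. The ratio of masked to unmasked sites was highest on chromosome X (0.83, 226 to 272), chromosome 17 (0.82, 322 to 392) and chromosome 3 (0.58, 307 to 531). It was lowest on chromosomes 18 and 4 (0.39 each) and 13 (0.44).

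On chromosome X the masked share was 44.8% (exact 95% interval 40.4 to 49.3) and steady, at 45.4% to 47.1% over the libraries. On chromosome 17 it was also 44.8% (41.1 to 48.5) but ranged from 39.6% in microglia 1 to 57.1% in microglia 2. Without the dense stretch it was 33.8% there, 183 of 542 sites, and the plus share of masked sites was 57.9%. On chromosome 4 it was 27.8%, with 25.6% to 28.8% over the libraries. The library values of chromosomes X and 4 did not overlap. Both were picked for their ratios over these same libraries, so this gap is no test of a difference.

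**Figure D4:**
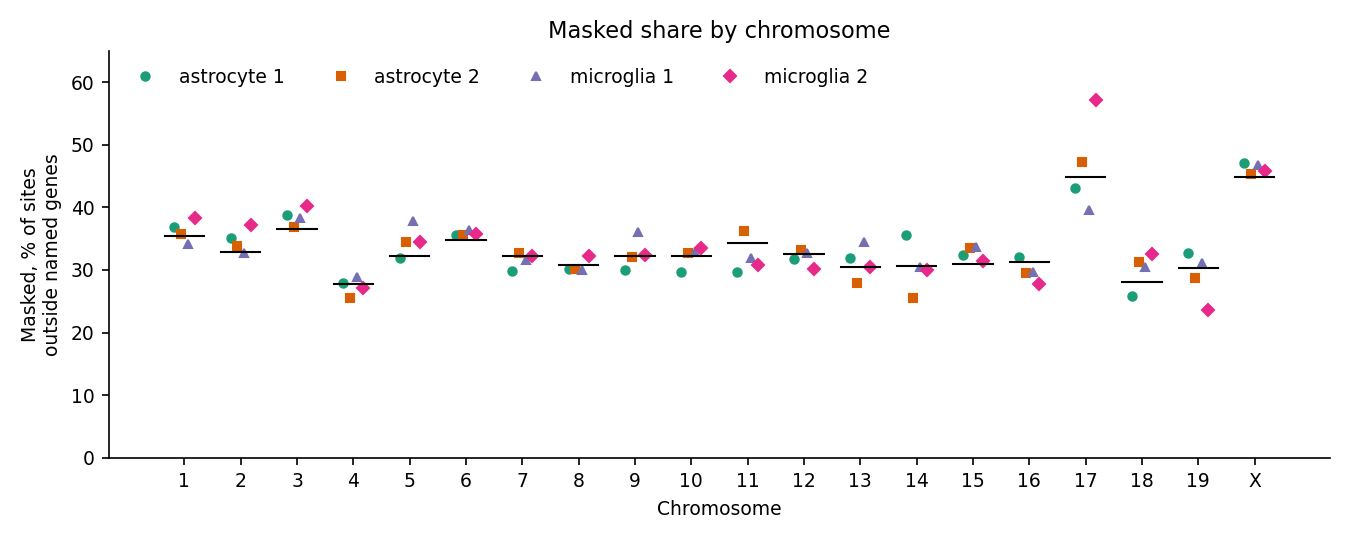
Masked sites as a percent of all sites outside named genes (y axis) by chromosome (x axis), with 1 marker per library as labelled and a line at the share over distinct sites. Chromosome X lies at 45.4% to 47.1% in the 4 libraries, and chromosome 17 is spread from 39.6% to 57.1%.

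The dense stretch of chromosome 17 was found from windows of 100 kb with at least 10 masked sites, a rule chosen after the data were seen. It covered positions 39800001 to 40200000, where 139 of 177 sites outside named genes were masked (78.5%). These 139 sites, 2.78% of all masked sites, ran over 331 kb from 39820773 to 40152104. On the plus strand lay 138 of them, with 1 on the minus strand, and all 37 unmasked sites were on the plus strand. The libraries listed 83, 53, 32 and 89 of the masked sites, or 3.15%, 3.24%, 1.78% and 5.46% of their masked sites. The library labelled microglia 2 had the largest share and that labelled microglia 1 the smallest.

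Levels in the stretch were high. Those at 100% made up 88.0%, 92.5%, 96.9% and 93.3% of its masked sites, and 121 of the 139 sites stood at 100% in each library that listed them. In at least 2 libraries 74 were listed (53.2%), and 8 in all 4. GAC made up 45 of the 139 (32.4%). Of the few lower ones, the aac site at 40034730 had 37.1% in astrocyte 1 and 55.6% in microglia 1, and that at 40109120 had 55.6% in astrocyte 1.

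The stretch had 1 site in a named gene, at 40158238 in Rn18s-rs5, an 18S ribosomal RNA related sequence, with a level of 13.2% in microglia 1. It lay 6.13 kb beyond the last masked site on the same strand. The nearest unmasked sites before it were also low. Position 40154593 had 17.97% in astrocyte 1 and 22.1% in microglia 2, and 40155102 had 24.8% in microglia 1. The named sites on either side of the stretch were in H2-M3, 2236 kb before, and Mmut, 1096 kb after.

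**Figure D5:**
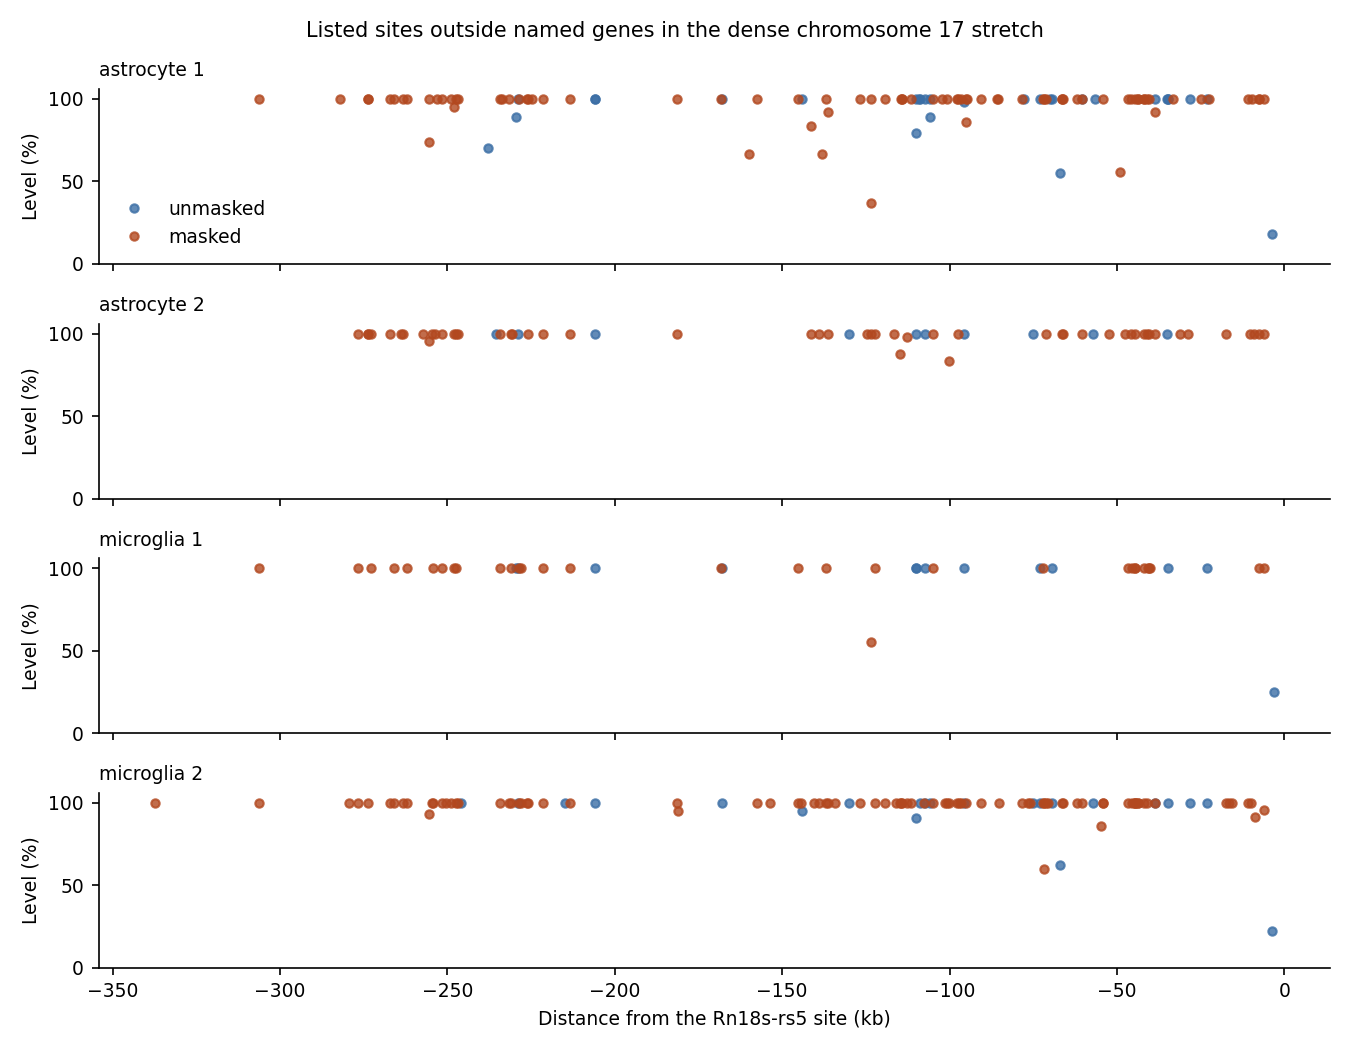
Level (y axis, percent) of each site outside named genes in the dense stretch of chromosome 17, by distance from the Rn18s-rs5 site (x axis, kb), in 1 panel per library as labelled, with masked and unmasked sites in different colours. Most masked sites lie at 100% in every panel, and the unmasked sites next to the Rn18s-rs5 site lie at 17.97%, 24.8% and 22.1% in astrocyte 1, microglia 1 and microglia 2.

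Over the whole genome, this stretch included, masked sites mostly stood alone. Over windows of 1000 bases, 4899 held a masked site and 4813 of these held only 1. Another 78 held 2, and 7 held 3, of which 5 were on chromosome 17. The fullest window, from 40117001 to 40118000 of chromosome 17, held 4 plus-strand sites, all at 100% wherever listed. The 7 windows with 3 sites are tied, and the next 4 named are the first of them by chromosome and position. Of those 4, 2 were in the same stretch. The window from 123189001 to 123190000 of chromosome 9 held 3 plus-strand sites, each at 100% in 1 library. The window from 16165001 to 16166000 of chromosome 3 held 3 plus-strand sites of different level. They were the sites at 16165241 and 16165353 given above and a gac site at 16165197 with 28.2% in astrocyte 1, 31.9% in astrocyte 2 and 23.9% in microglia 1. In every library 16165353 was the highest of the 3, and 16165241 was the lowest in the 3 libraries that listed it.

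The median distance to the nearest masked site on the same strand was 239 kb, against 101 kb between the more numerous unmasked sites. Within a library, 1.52%, 1.41%, 1.11% and 1.90% of masked sites had another site outside named genes within 100 bases on their strand, against 1.91%, 1.62%, 0.816% and 0.962% of unmasked sites. The masked share was higher in 2 of 4 libraries, by 0.156 points ± 0.598 (SD, n = 4; exact paired permutation test, p = 0.750, adjusted p = 0.750). Without the dense stretch of chromosome 17 the difference was -0.0942 points, and without microglia 2 it was -0.104 points, so no direction was shown. It was 0.339 points without astrocyte 1, 0.282 without astrocyte 2 and 0.0468 over sites of at least 20%.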

How the data were processed

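Each library had 1 deposited table with a row per called site: its position, gene name, methylation level, strand and 3-mer. The authors gave the level as a fraction without coverage, and it is printed as a percent. The series' design text names GLORI-tools for calling. The submitters' processing notes name STAR and mm39, and calling thresholds were not given in the sources used here. Positions are 1-based in mm39. Read depth is unknown, so levels carry no counting interval.

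Sites were matched by chromosome, position and strand (Python 3.11.15, pandas 2.3.3, scipy 1.17.1). Masked and unmasked values were compared within library by an exact paired permutation test, and labels by an exact permutation test. Site levels were tested with limma 3.58.1 in R 4.3.3 on log2 odds, with levels limited to 0.01 to 0.99, over all sites in 4 libraries, with Benjamini-Hochberg adjustment. Sites tied within both labels were not tested. The code was checked on simulated data. The members and lists were chosen with earlier results of these data known. Named sites are, outside chromosome 18, the 10 with the lowest mean level in all 4 libraries, the 5 with the lowest limma p, the 3 with the lowest mean level in each label's list, the 5 fullest windows of 1000 bases, and the chromosomes with the 3 highest and 3 lowest ratios. The dense stretch and the sites under 20% fall outside that rule and were chosen after their values were seen. Alternatives left out each library, levels under 20% or other chromosomes, or changed the masking rule, clustering, strand matching or limma settings. No sequence beyond the 3-mer was used, since no genome of this build was used here. The count of masked sites within the span of 1 named gene is not reported here.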

Additional observations from a re-analysis of the deposited data

Results flagged for a closer look

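At the masked site at position 91494033 of chromosome 10, the library labelled astrocyte 2 stood apart at 34.97%, against 16.5% to 18.8% in the other 3 libraries. At the masked site at position 19800285 of chromosome 11, the library labelled microglia 1 stood apart at 61.5%, against 34.8% to 36.4% in the other 3. These came from 25 groups of 4 values examined, and chance alone marks about 1 in 20 such groups.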

How the results depend on the processing

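Of 143 values recomputed under alternatives for 16 results, 126 kept their direction and call or, for counts and the overlap index, which had no test, moved by less than 1.5 times or 1 SD over library pairs. Another 13 moved by more and 4 tested differences turned sign. The count of masked sites in both astrocyte-labelled libraries only (65) was 119 to 1392 with 1 library left out, 1675 with the replicate 1 libraries alone and 1115 with the replicate 2 libraries alone. The count for microglia-labelled libraries (95) was 122 to 745, 834 and 1109. The same-label minus different-label Jaccard index (-0.761 points) ran from -7.89 without microglia 1 to 10.7 without astrocyte 1, and also turned sign without astrocyte 2 (0.851). The difference in mean level between labels over sites in all 4 libraries (0.148 points) ran from -0.0903 without astrocyte 2 to 0.447 with 1 library left out, and was -0.0278 without microglia 2. The share within 100 bases (0.156 points) ran from -0.104 to 0.339 with 1 library left out and was -0.0942 without the dense stretch of chromosome 17. The list counts grow because fewer libraries must lack or hold a site; elsewhere the cause was not tested. The limma count was 0 under all 11 alternatives. With the replicate number as a block, 0 of 113 masked sites were called, the smallest adjusted p was 0.892 and 3 had an unadjusted p under 0.05. Deviations of the replicate 1 libraries from their label means had r = -0.0703 over 354 sites. This cannot decide pairing, since with replicate 2 libraries going against their labels a type difference could enter with opposite signs. The numbers were not taken to pair the libraries. The smallest adjusted limma p was 0.0927 with tied sites kept, where most spreads are 0, and 0.457 to 0.999 otherwise. Levels are limited by their unknown depth, and a 3-mer's case is the only sign of masking used. Matching sites without strand, run for both list counts, the overlap index and the share in another library, left all 4 values as they were.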

Other observations

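Some masked sites outside named genes lay between sites that the tables assigned to 1 named gene. Over the 2277 named genes with at least 2 listed sites, the span from first to last site had a median of 4.35 kb. On the gene's strand, 243 masked sites (4.87%, exact 95% interval 4.29 to 5.50) lay within such a span, in 167 genes, against 816 unmasked sites (8.26%, 7.72 to 8.82). On the opposite strand 37 masked sites (0.741%) and 141 unmasked sites (1.43%) did. Gpc5, which encodes a glypican of the cell surface, held the most masked sites at 15. Pitpnc1, a phosphatidylinositol transfer protein gene, held 7. Frmd4a, Npas3, Ogdh and Rora held 4 each. Gpc5 also held the most unmasked sites at 17, and Rora, Npas3 and Pitpnc1 held 16, 12 and 11 of them. High counts in those genes were therefore not particular to masked sites. These genes were picked for their counts after the data were seen.

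Apart from the chromosome 17 stretch, 2 other runs reached 10 masked sites per 100 kb. From 10700001 to 10900000 of chromosome 16 there were 25 masked and 43 unmasked sites, all on the plus strand, with 17 named sites in Litaf, Snn, Txndc11 and 3 predicted genes. From 3100001 to 3200000 of chromosome 6 there were 13 masked and 11 unmasked sites, all on the plus strand, and no named site. Of 27 windows of 100 kb with at least 5 masked sites, 22 held sites of 1 strand only, 18 of them plus, and of 82 such windows of unmasked sites 58 did, 45 of them plus. Of the 124 mixed-case sites outside named genes, 94 (75.8%) had the 3-mer AAC, and 60 (48.4%) were written aaC.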
